A study of Homo sapiens with 30 samples.

Results

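The genes described here build the adherens junction and the contacts between neighbouring endothelial cells: CDH5, PECAM1, CDH2, CTNNB1, CTNND1, JUP, PTPRB, CD99 and ENG. They were taken by symbol from a table of read counts, which gave 9 of the 40951 symbols in it, and 10 of its 63138 gene IDs because CD99 is listed under 2 IDs. RNA was sequenced from hCMEC/D3, a human line of brain microvascular endothelium that was immortalised and serves to model the blood-brain barrier in culture, in 30 libraries that form 10 groups of 3. In the direct groups the cells were kept for 12 h in serum-free medium alone (Control) or with a stimulus. The TNF group received 25 ng/mL of tumour necrosis factor, the IL1b group 10 ng/mL of interleukin 1 beta, the C5a group 50 ng/mL of that complement fragment and the Epinephrine group 200 nM of the hormone. In the vesicle groups cells received for 12 h the extracellular vesicles enriched from supernatants of cells treated in those same ways, and each of these groups carries EV- before the name of the treatment the vesicles came from, so EV-Control is the group given vesicles of untreated cells. All groups share 1 immortalised line, so no group shows how other endothelial cells respond. The labels do not say whether the 3 libraries of a group came from separate cultures, so the p-values below measure the spread between libraries, which may be technical. They also do not say whether the direct and the vesicle groups were run side by side, so in each value that sets one kind against the other the vesicles and any such difference cannot be told apart.

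In an adherens junction a cadherin binds its like on the next cell, and its tail holds catenins that link it to actin. VE-cadherin, encoded by CDH5, is the cadherin of endothelial junctions, and N-cadherin, encoded by CDH2, is known for contacts of endothelial cells with pericytes. Beta-catenin (CTNNB1) and its close relative plakoglobin (JUP) compete for the same stretch of the cadherin tail, p120-catenin (CTNND1) holds the cadherin at the membrane, and VE-PTP (PTPRB) is a phosphatase that acts on VE-cadherin and on the receptor TIE2. PECAM1 and CD99 sit between endothelial cells outside the adherens junction and take part in the passage of leukocytes, and endoglin (ENG) is a co-receptor for ligands of the TGF-beta and BMP family.

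The libraries held 16643961 to 22112326 counts, and values below are CPM, the usual measure of counts relative to library size, after scaling with the trimmed mean of M-values (TMM) over the 30 libraries. A fixed list of 15 endothelial markers had 14 at 1 CPM or more on average over the libraries, with EMCN at most 0.664 CPM, and the list summed to 699 to 1050 CPM. The sum was 986 to 1050 CPM in Control and lower in every other group, at 908 to 934 CPM in TNF, 853 to 928 in Epinephrine, 722 to 744 in IL1b, 719 to 738 in C5a, 710 to 756 in EV-Control and 699 to 785 in the other vesicle groups. Markers of pericytes and smooth muscle had 6 of 9 at 1 CPM or more on average and summed to 326 to 535 CPM. Their sum was 376 to 432 CPM in Control and 466 to 486 in TNF. IL1b, C5a and Epinephrine libraries gave 336 to 352, 351 to 374 and 326 to 358 CPM. EV-Control gave 426 to 447 CPM and EV-C5a 417 to 433. EV-TNF, EV-IL1b and EV-Epinephrine gave 464 to 477, 464 to 493 and 514 to 535 CPM. CSPG4 gave 251 to 441 CPM of that sum, PDGFRB 34.4 to 88.7 CPM, NOTCH3 at most 25.2 CPM and RGS5 at most 11.3 CPM. Epithelial markers summed to at most 2.61 CPM, leukocyte markers to at most 4.37 CPM and astrocyte and neuron markers to at most 8.8 CPM. The part of these lists in the results was not tested. In bulk RNA, fewer cells that express a gene and less of its RNA per cell cannot be told apart.

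The promoter windows of JUP and CTNNB1 are shown because these related catenins stood at opposite ends of the response, JUP with the largest changes and CTNNB1 with the smallest range. RefSeq gave windows for 5 of the 9 genes, and those shown are the 250 bases before a start site on GRCh38.p14, written 5′ to 3′ on the gene's strand. JUP has 2 windows, at chr17:41785977-41786226 and chr17:41786712-41786961, both on the minus strand, and CTNNB1 has 1, at chr3:41199255-41199504 on the plus strand. Capitals mark the E-box CAGGTG and the GC box GGGCGG on either strand.
JUP window 1: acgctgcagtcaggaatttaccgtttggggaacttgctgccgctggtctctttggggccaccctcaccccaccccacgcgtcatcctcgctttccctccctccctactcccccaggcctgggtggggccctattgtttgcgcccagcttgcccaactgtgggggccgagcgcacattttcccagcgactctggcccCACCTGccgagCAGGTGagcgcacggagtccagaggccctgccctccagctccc
JUP window 2: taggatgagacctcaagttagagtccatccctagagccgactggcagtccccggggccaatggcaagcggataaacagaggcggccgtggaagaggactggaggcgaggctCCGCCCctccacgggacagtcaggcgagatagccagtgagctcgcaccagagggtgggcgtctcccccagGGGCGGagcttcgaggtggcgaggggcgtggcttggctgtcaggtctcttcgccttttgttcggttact
CTNNB1 window: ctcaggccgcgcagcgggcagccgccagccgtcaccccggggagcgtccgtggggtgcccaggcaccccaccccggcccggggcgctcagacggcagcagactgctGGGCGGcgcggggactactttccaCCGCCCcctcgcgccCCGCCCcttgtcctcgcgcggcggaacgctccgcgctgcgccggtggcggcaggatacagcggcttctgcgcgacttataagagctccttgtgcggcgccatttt
JUP window 1 held 2 E-boxes and no GC box, JUP window 2 held 2 GC boxes and no E-box, and the CTNNB1 window held 3 GC boxes. Among 35116 RefSeq windows of the same length, 17.5% held the E-box and 42.6% held the GC box. The NF-kappaB consensus was in 5.21% of all windows and in none of those of the genes described here, and the ETS core GGAA was in 92.7%. A match describes letters and is not evidence of binding.

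Per kilobase of exon, the levels in Control followed this order: JUP at 102 CPM per kb, ENG at 60, CDH5 at 44.2, CTNNB1 at 35.4, PECAM1 at 34.9, CDH2 at 33.5, CTNND1 at 1.62 and PTPRB at 1.12. PECAM1 (SD 1.88) lay within its spread of both CTNNB1 (SD 1.24) and CDH2 (SD 0.398), its neighbours in that order. In TNF cells the order was different, with CDH5 first at 70 CPM per kb and JUP at 32.9, just below CTNNB1 at 34.9. The exon lengths are those of GENCODE 29, whose release need not be the one the counts were made with.

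**Figure D1:**
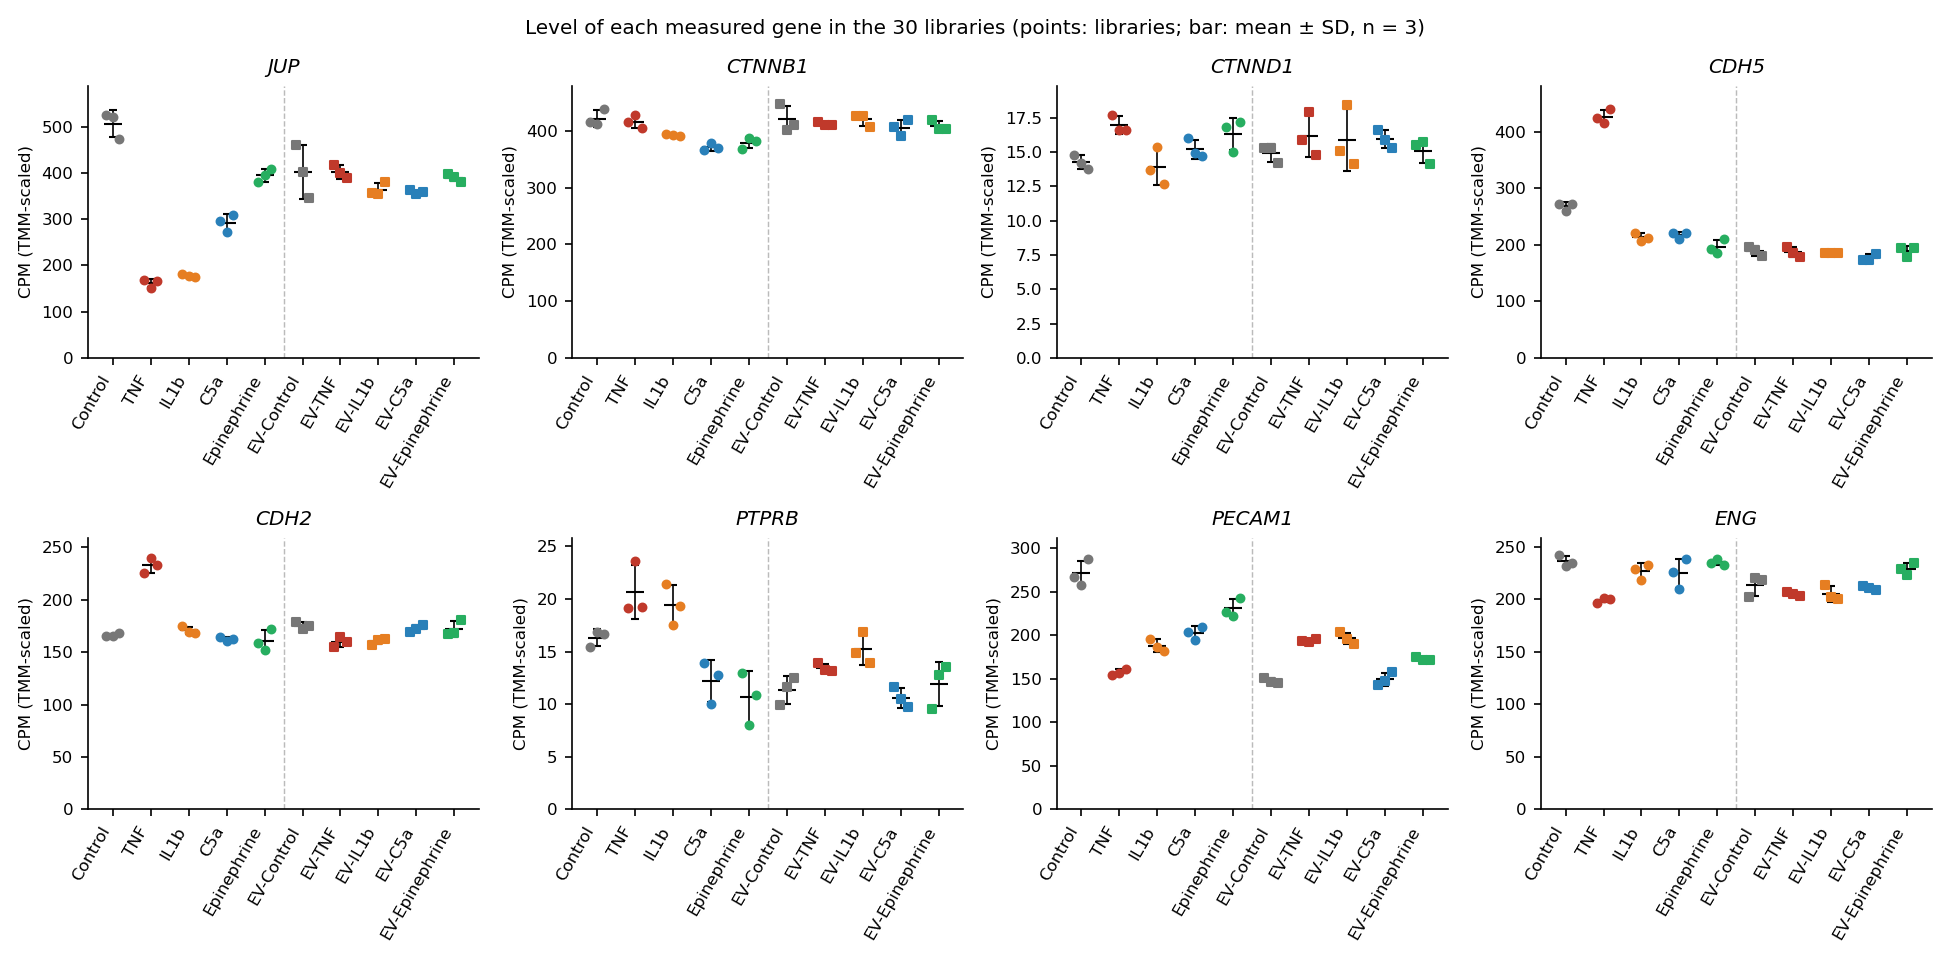
CPM after TMM scaling (vertical axis, from 0) of the 8 measured genes in each of the 30 libraries by group, with circles for direct and squares for vesicle groups and bars for the mean ± SD of 3 libraries. JUP is lowest in TNF and IL1b, between 152 and 182 CPM, CDH5 and CDH2 are highest in TNF, and PECAM1 is highest in Control.

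JUP (ENSG00000173801, chromosome 17, 41754604 to 41786931) had the largest change of the 8 genes. It measured 526, 520 and 473 CPM in the Control libraries, 168, 152 and 167 in TNF and 182, 177 and 175 in IL1b. C5a libraries held 295, 272 and 309 CPM and Epinephrine libraries 380, 396 and 408 CPM. No library of a direct stimulus reached the lowest Control library. JUP fell to 0.321 times its Control level with TNF (log2 fold change -1.64, SE 0.05, adjusted p = 5.2e-25 by the quasi-likelihood test of edgeR) and to 0.354 times with IL1b (-1.50, SE 0.05, adjusted p = 3.88e-23, edgeR). With C5a it fell to 0.581 times (-0.78, SE 0.05, adjusted p = 1.58e-14, edgeR) and with Epinephrine to 0.785 times (-0.35, SE 0.05, adjusted p = 1.16e-06, edgeR). All 4 comparisons share the 3 Control libraries. IL1b stood 0.14 above TNF on the log2 scale (SE 0.05, adjusted p = 0.0256, edgeR), a call that was lost in the fit of all 30 libraries, where adjusted p was 0.148, and without TNF replicate 2, IL1b replicate 1 or IL1b replicate 2.

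JUP did not pass the test in any vesicle group. EV-Control libraries were far apart, at 461, 402 and 345 CPM, and the other vesicle libraries lay between 354 and 418 CPM, inside that range. Differences from EV-Control were 0.00 for EV-TNF, -0.15 for EV-IL1b, -0.17 for EV-C5a and -0.04 for EV-Epinephrine on the log2 scale, each with an SE of 0.08. Without EV-Control replicate 3, JUP passed in EV-IL1b (-0.24, adjusted p = 1.94e-05, edgeR), EV-C5a (-0.26, adjusted p = 8.12e-05, edgeR) and EV-Epinephrine (-0.14, adjusted p = 0.00983, edgeR). With all libraries kept but no filter on low counts, it also passed in EV-IL1b (-0.15, adjusted p = 0.0144, edgeR). Against Control, EV-Control was lower by -0.33 (SE 0.07, adjusted p = 0.000884, edgeR), and in a fit of these 2 groups alone adjusted p was 0.161.

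CTNNB1 (ENSG00000168036, chromosome 3, 41194741 to 41260096) varied least. Its 30 libraries ran from 366 to 448 CPM, a 1.22-fold range. The Control libraries averaged 422 ± 14.8 CPM (SD, n = 3), TNF 417 ± 12.1 and IL1b 394 ± 1.71, and neither cytokine passed the test (-0.02, adjusted p = 0.729, and -0.09, adjusted p = 0.0657, edgeR). The IL1b value passed in 5 of 14 other settings, among them DESeq2 (adjusted p = 0.0389), the fit of all 30 libraries (adjusted p = 0.0253, edgeR) and total counts (-0.17). C5a libraries averaged 371 ± 6.13 CPM and Epinephrine libraries 380 ± 9.79 CPM, and CTNNB1 fell by 0.17 and by 0.14 on the log2 scale in these groups (SE 0.04 each, adjusted p = 0.00157 and 0.00913, edgeR). The Epinephrine call was lost without Control replicate 3 (-0.11, adjusted p = 0.0691, edgeR) and when the compared groups were fitted alone (adjusted p = 0.0693, edgeR). IL1b against TNF (-0.07), the vesicle groups against EV-Control (-0.05 to 0.00) and EV-Control against Control (0.00) did not pass. Under scaling by total counts the TNF value was -0.29 with an adjusted p of 7.4e-08 (edgeR), so the steady level of CTNNB1 in TNF cells holds relative to the TMM scaling.

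CTNND1 (ENSG00000198561, chromosome 11, 57753243 to 57819546) gave few reads, 239 to 375 counts or 12.7 to 18.4 CPM. TNF libraries held 17 ± 0.625 CPM against 14.3 ± 0.519 in Control (SD, n = 3), a rise of 0.25 (SE 0.10, adjusted p = 0.0346, edgeR). That call was lost in 8 of 14 alternative settings, among them leaving out Control replicate 2, Control replicate 3 or any 1 TNF library, and under total counts the value was -0.03. CTNND1 was lower in IL1b than in TNF by -0.27 (SE 0.10, adjusted p = 0.0252, edgeR), a call lost in 5 of 14 settings, among them without TNF replicate 1, IL1b replicate 1 or IL1b replicate 3, and total counts (-0.08). IL1b, C5a and Epinephrine gave -0.03, 0.10 and 0.21 against Control, the vesicle groups 0.02 to 0.12 against EV-Control and EV-Control 0.07 against Control, and none of these passed. The readthrough gene TMX2-CTNND1 runs from 57712523 to 57819180 on chromosome 11 in RefSeq and spans nearly the whole of CTNND1, so reads could be shared between both. In GENCODE 29 it shares 3.65% of the exonic bases of CTNND1, and its part in the low counts was not tested.

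CDH5 (ENSG00000179776, chromosome 16, 66366622 to 66404786) rose with TNF and fell with each of the other direct stimuli. Control libraries measured 273, 260 and 273 CPM, and TNF libraries 424, 415 and 440 CPM. IL1b libraries held 221, 206 and 212 CPM, C5a libraries 221, 211 and 221 CPM and Epinephrine libraries 193, 186 and 210 CPM. Every TNF library was above every Control library, and every library of the other stimuli was below. The rise with TNF was 1.58-fold (log2 0.66, SE 0.05, adjusted p = 8.66e-15, edgeR). Falls were -0.33 with IL1b (adjusted p = 3.49e-07, edgeR), -0.30 with C5a (adjusted p = 9.12e-06, edgeR) and -0.44 with Epinephrine (adjusted p = 3.61e-09, edgeR), each with an SE of 0.05. IL1b against TNF, which does not use the Control libraries, gave -0.99 (SE 0.05, adjusted p = 2.63e-19, edgeR). The summed endothelial markers, in which CDH5 and PECAM1 are not counted, were below Control in all 4 direct groups, TNF included. Single markers of that list went both ways in TNF. CLEC14A, a large part of the sum, fell from 253, 251 and 243 CPM in Control to 181, 203 and 187 CPM. TEK rose from 34, 37.4 and 38.5 CPM to 62.9, 65 and 60.9 CPM, and ROBO4 libraries, at 51.7, 47.5 and 46.3 CPM, lay above Control.

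In order of level CDH5 stood at 426 CPM in TNF and 269 CPM in Control, followed by C5a at 218, IL1b at 213 and Epinephrine at 196 CPM. The ranges of C5a and IL1b overlapped, as did those of IL1b and Epinephrine. The 5 vesicle groups averaged 177 to 189 CPM. Their ranges overlapped for neighbours in the order, and that of EV-Control overlapped Epinephrine, except that EV-C5a, at 174 to 184 CPM, lay just below EV-IL1b, at 185 to 186 CPM. No vesicle group differed from EV-Control in the test, with values of -0.09 to 0.00 and an SE of 0.04. EV-Control itself, at 197, 190 and 180 CPM, was below Control by -0.51 (SE 0.04, adjusted p = 2.48e-14, edgeR).

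CDH2 (ENSG00000170558, chromosome 18, 27950966 to 28177446) was near one level except in TNF cells. Control libraries held 165, 165 and 168 CPM, and TNF libraries 225, 240 and 233 CPM. It rose 1.4-fold with TNF (log2 0.49, SE 0.05, adjusted p = 2.64e-11, edgeR), and under total counts the value was 0.21 and still passed. IL1b, C5a and Epinephrine gave 0.05, -0.02 and -0.03 and did not pass, and IL1b was below TNF by -0.44 (SE 0.05, adjusted p = 6.94e-10, edgeR). EV-C5a and EV-Epinephrine gave -0.03 each against EV-Control, EV-Control gave 0.08 against Control, and none of these passed. CDH2 was slightly lower with vesicles from cytokine-treated cells, -0.14 in EV-TNF (adjusted p = 0.00862, edgeR) and -0.13 in EV-IL1b (adjusted p = 0.0134, edgeR), each with an SE of 0.04. The first call was lost without EV-TNF replicate 1 and the second without EV-Control replicate 1 or EV-IL1b replicate 1.

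PTPRB (ENSG00000127329, chromosome 12, 70515866 to 70637440) had 142 to 439 counts in a library, so its values carry wide errors. It measured 15.4, 16.9 and 16.7 CPM in Control, 19.1, 23.6 and 19.2 in TNF, 21.4, 17.5 and 19.3 in IL1b, 13.9, 10 and 12.8 in C5a and 13, 8.03 and 10.9 in Epinephrine. The TNF and IL1b libraries lay above Control and the C5a and Epinephrine libraries below it. IL1b did not pass (0.26, SE 0.13, adjusted p = 0.102, edgeR), except when the compared groups were fitted alone (adjusted p = 0.0217, edgeR), and it stood at -0.08 against TNF. PTPRB fell with Epinephrine by 0.60 (SE 0.14, adjusted p = 0.00125, edgeR). The rise with TNF (0.34, SE 0.13, adjusted p = 0.0276, edgeR) and the fall with C5a (-0.40, SE 0.13, adjusted p = 0.0279, edgeR) were each lost in 4 of 14 settings. TNF was 0.06 under total counts, and its call was also lost without Control replicate 1, Control replicate 3 or TNF replicate 2. For C5a the call was lost without Control replicate 2, Control replicate 3, C5a replicate 2 or C5a replicate 3.

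Among the vesicle groups PTPRB rose in EV-IL1b, from 9.95, 11.6 and 12.5 CPM in EV-Control to 14.9, 16.9 and 13.9 CPM (0.42, SE 0.12, adjusted p = 0.00866, edgeR). That call was lost without EV-Control replicate 1 or EV-IL1b replicate 2. EV-TNF (0.24), EV-C5a (-0.10) and EV-Epinephrine (0.06) did not pass. EV-Control was below Control by -0.52 (SE 0.13, adjusted p = 0.00241, edgeR). Antisense genes overlap 8.97% of the exonic bases of PTPRB and 7.95% of those of ENG, and the strand setting of the counting is not given in the sources used here.

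PECAM1 (ENSG00000261371, chromosome 17, 64319415 to 64413776) was highest in cells that received neither a stimulus nor vesicles. Control libraries measured 267, 258 and 287 CPM, TNF libraries 154, 156 and 161, IL1b libraries 196, 186 and 182, C5a libraries 204, 194 and 209 and Epinephrine libraries 227, 222 and 243. The lowest Control library was above all of these. PECAM1 fell to 0.58 times its Control level with TNF (-0.79, SE 0.05, adjusted p = 2.78e-16, edgeR) and to 0.699 times with IL1b (-0.52, SE 0.05, adjusted p = 3.54e-11, edgeR). The falls with C5a and Epinephrine were -0.41 (adjusted p = 3.96e-08, edgeR) and -0.22 (adjusted p = 0.000548, edgeR), each with an SE of 0.05. IL1b was above TNF by 0.27 (SE 0.05, adjusted p = 2.14e-05, edgeR).

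In 3 of the vesicle groups PECAM1 moved the other way. EV-Control libraries held 151, 146 and 145 CPM, 0.545 times the Control level (-0.88, SE 0.04, adjusted p = 1.26e-24, edgeR). EV-TNF libraries held 193, 192 and 195 CPM, EV-IL1b 203, 196 and 190 CPM and EV-Epinephrine 175, 172 and 171 CPM, all above EV-Control and all below Control. Rises over EV-Control were 0.39 in EV-TNF (adjusted p = 7.82e-12, edgeR), 0.41 in EV-IL1b (adjusted p = 1.8e-12, edgeR) and 0.23 in EV-Epinephrine (adjusted p = 7.13e-06, edgeR), each with an SE of 0.04. EV-C5a, at 143, 147 and 158 CPM, overlapped EV-Control (0.02, adjusted p = 0.955, edgeR).

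CD99 (ENSG00000002586 and ENSG00000292348) had at most 1 and 2 counts in a library under its IDs, under the limit of 3 counts that a reading of 0 allows, and was not tested. All 18 protein-coding genes of the pseudoautosomal regions in GENCODE 29 had at most 3 counts in every library, and 15 had 0. CD99 lies in such a region, so the table gives no measure of its level.

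ENG (ENSG00000106991, chromosome 9, 127815012 to 127854756) changed little. Control libraries held 242, 232 and 235 CPM and TNF libraries 197, 201 and 200 CPM, without overlap. ENG fell with TNF by 0.25 (SE 0.05, adjusted p = 2.32e-05, edgeR), and IL1b, C5a and Epinephrine gave -0.05, -0.06 and 0.01 and did not pass, though the IL1b value passed under total counts (-0.13, adjusted p = 0.0127, edgeR). IL1b was above TNF by 0.19 (SE 0.05, adjusted p = 0.000767, edgeR). EV-TNF, EV-IL1b and EV-C5a gave -0.06, -0.06 and -0.02 against EV-Control and did not pass. EV-Control libraries, at 202, 220 and 218 CPM, were below Control by -0.15 (SE 0.04, adjusted p = 0.00634, edgeR), a call that was lost without Control replicate 1 or EV-Control replicate 1. EV-Epinephrine, at 229, 223 and 235 CPM, was above EV-Control by 0.10 (SE 0.04, adjusted p = 0.0437, edgeR), and this call was lost in 9 of 14 settings, among them DESeq2.

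**Figure D2:**
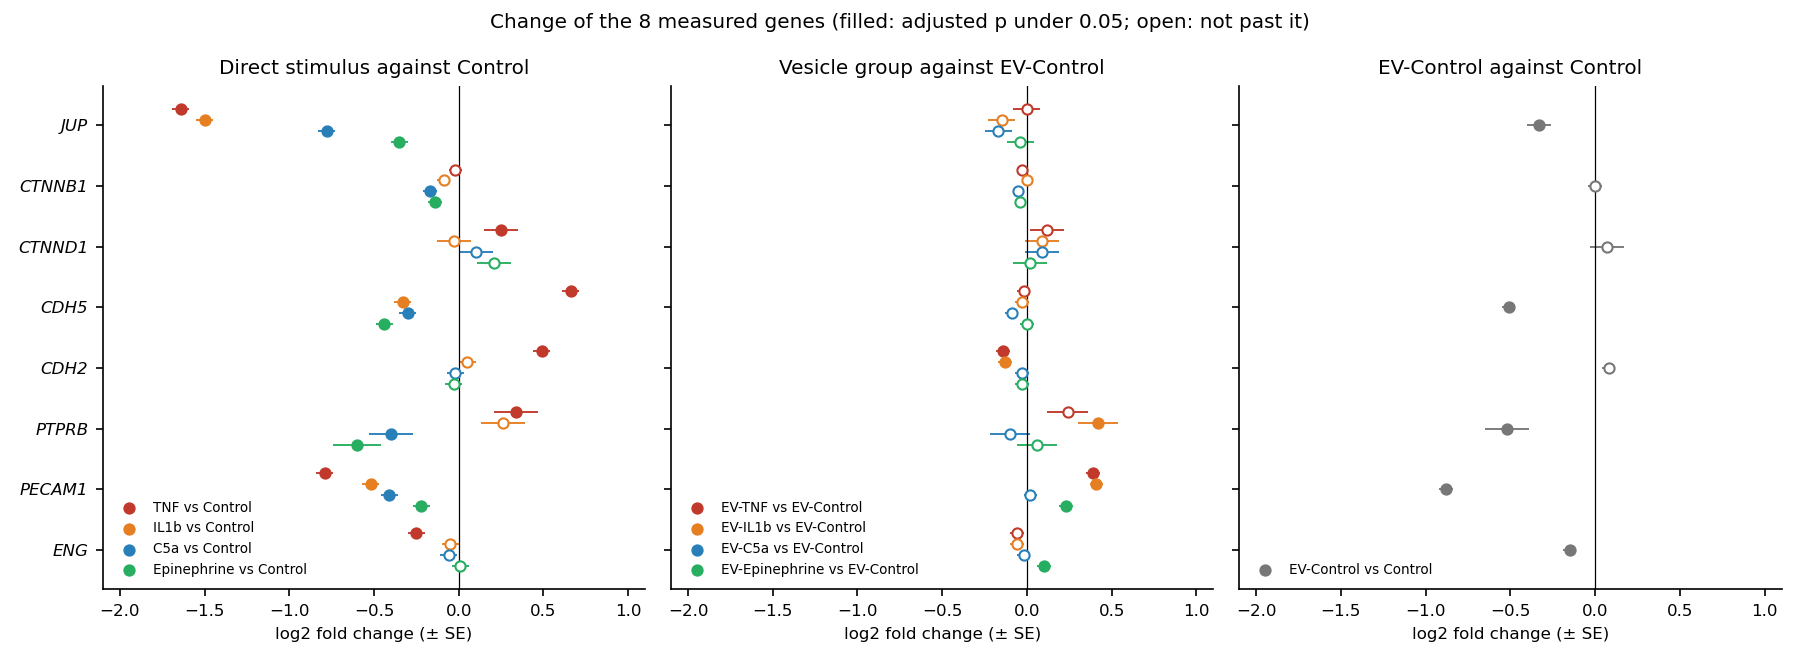
Log2 fold change (horizontal axis, ± SE) of the 8 measured genes for the direct stimuli against Control, the vesicle groups against EV-Control, and EV-Control against Control, with filled points past the adjusted p threshold of 0.05. JUP reaches -1.64 with TNF and lies within 0.17 of 0 in the vesicle groups, while PECAM1 is negative for every direct stimulus and positive, at 0.23 to 0.41, in 3 vesicle groups.

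The counts of these genes were read against all genes tested. In TNF cells 7 of the 8 changed, where 52.7% of 15908 genes did, with 4 higher (27.5% of all genes) and 3 lower (25.3%). Their median log2 fold change was 0.11, against -0.01 for all genes. Under total counts the median of all genes in TNF was -0.288, and 22.7% of the called genes were higher against 52.1% with TMM. JUP, CDH5, PECAM1, CDH2 and ENG kept their direction and their call under that scaling. With IL1b 3 of the 8 changed (46.6% of all genes), and all 3 were lower (22.6% of all genes, with 24% higher). Total counts gave 38.6% of IL1b calls as higher against 51.5%. C5a and Epinephrine each changed 5 of the 8, all lower. For C5a 22.6% of all genes changed, 11.8% higher and 10.8% lower, and the median of the 8 was -0.23 against 0.00. For Epinephrine 25.2% changed, 13.5% higher and 11.8% lower, and the median of the 8 was -0.18 against 0.01. These shares are a description of 8 chosen genes, whose Control libraries are the same in the 4 comparisons. Between the cytokines, IL1b against TNF, 6 of the 8 differed (41.4% of all genes), 3 higher (19.9%) and 3 lower (21.4%), and the share of higher calls was 48.1% with TMM and 76.1% with total counts.

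With vesicles 0 to 3 of the 8 changed. In EV-TNF 2 changed (13.3% of 15918 genes), 1 higher (5.9%) and 1 lower (7.42%). In EV-IL1b 3 changed (14.6%), 2 higher (6.49%) and 1 lower (8.14%). In EV-Epinephrine 2 changed (19.7%), both higher (9.12%, with 10.5% of all genes lower), and total counts gave 60.2% of calls as higher against 46.4%. In EV-C5a none of the 8 passed in edgeR or in DESeq2, and 1 had an unadjusted p under 0.05 in edgeR. Only 0.0503% of all genes passed there, 0.0126% higher and 0.0377% lower, and the share of higher calls was 25% with TMM and 40% with total counts. In EV-Control against Control 5 of the 8 changed, all lower, where 21.9% of 16691 genes changed, 12.1% higher and 9.8% lower. Total counts gave 42.6% of these calls as higher against 55.3%.

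**Figure D3:**
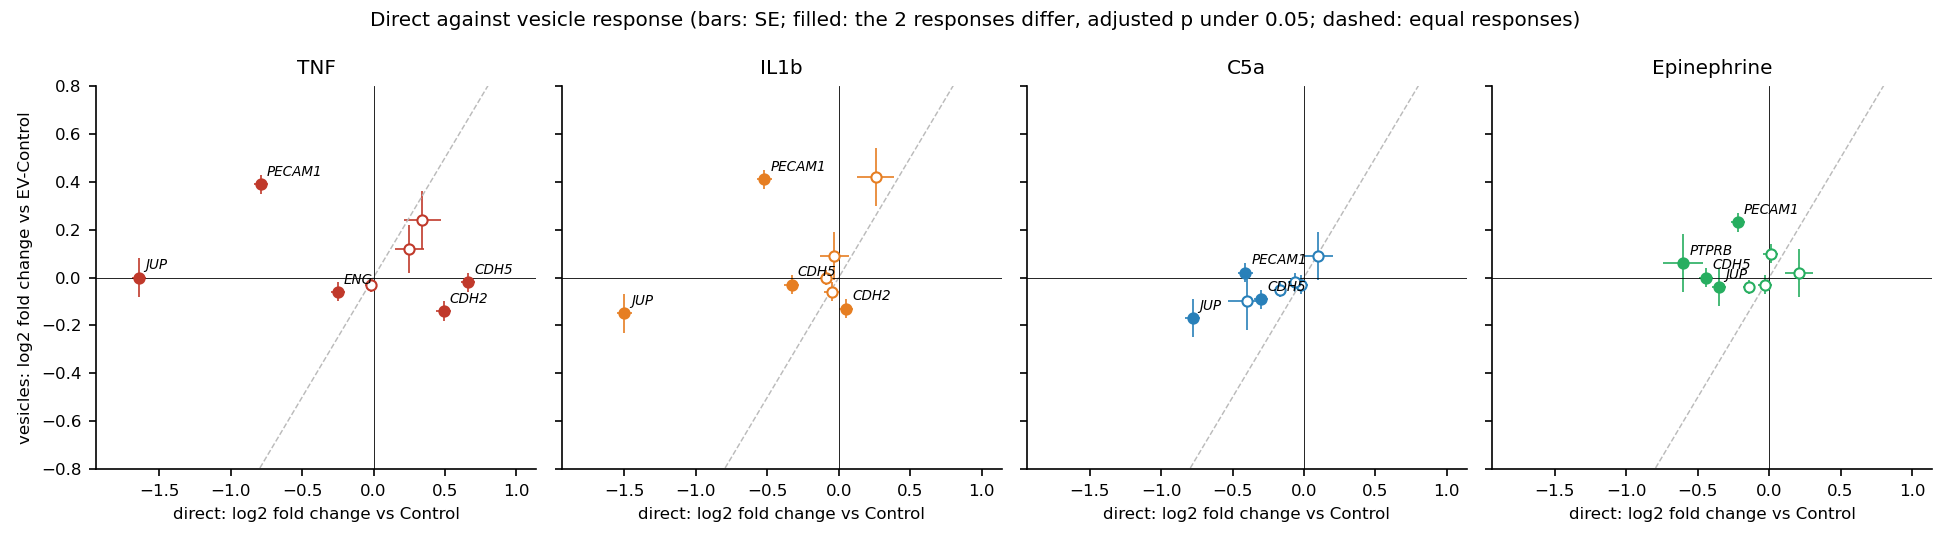
Log2 fold change of each gene with vesicles against EV-Control (vertical axis) and with the direct stimulus against Control (horizontal axis), with SE bars, a dashed line of equal responses and filled points where both differ past the threshold of 0.05. PECAM1 lies above the dashed line in all 4 panels and JUP is far from it with TNF and IL1b.

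The difference between both routes was tested as the vesicle response minus the direct response in a fit of all 30 libraries. For TNF it passed for 5 of the 8 genes (44.7% of all genes): JUP at 1.64 (SE 0.10), PECAM1 at 1.18 (SE 0.06), CDH5 at -0.68 (SE 0.06), CDH2 at -0.63 (SE 0.06) and ENG at 0.19 (SE 0.06). For IL1b it passed for 4 genes (35.2% of all genes), with JUP at 1.36, PECAM1 at 0.94, CDH5 at 0.31 and CDH2 at -0.17. For C5a it passed for 3 genes (11.9% of all genes) and for Epinephrine for 4 (24.2% of all genes). PECAM1 gave 0.44 and 0.46 in these, with adjusted p of 2.96e-07 and 1.71e-08 in edgeR's test. JUP gave 0.63 and 0.31 and CDH5 0.21 and 0.45, and PTPRB passed for Epinephrine at 0.67. The genes that did not pass lay between -0.13 and -0.01 for TNF, 0.00 and 0.17 for IL1b, 0.00 and 0.31 for C5a and -0.18 and 0.11 for Epinephrine. CTNNB1 was among these in all 4, but without EV-Control replicate 1 it passed for IL1b (0.14), C5a (0.16) and Epinephrine (0.15). Total counts put 76.7% of the TNF calls as higher against 47.7%, and 62.4% of the IL1b calls against 48.1%.

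**Figure D4:**
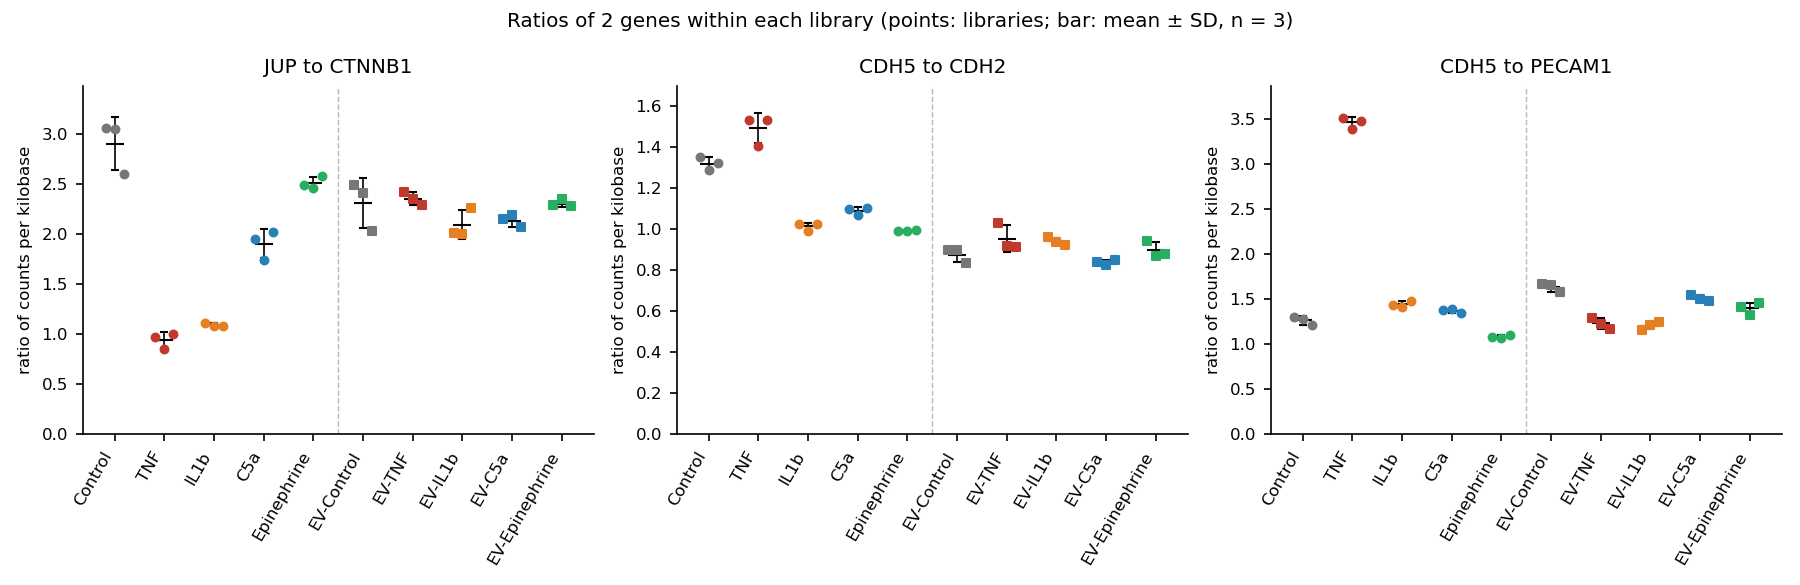
Ratio of the counts per kilobase of 2 genes within each library (vertical axis, from 0) by group, with points for libraries and bars for the mean ± SD of 3. JUP to CTNNB1 is lowest in TNF at 0.942 ± 0.0769, and CDH5 to PECAM1 is highest in TNF at 3.46 ± 0.0623.

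Ratios within a library do not depend on the scaling between libraries. They were chosen after the values had been seen and are given with no test. JUP to CTNNB1, per kilobase, was 2.9 ± 0.261 in Control (SD, n = 3), 0.942 ± 0.0769 in TNF, 1.09 ± 0.0172 in IL1b, 1.9 ± 0.144 in C5a and 2.51 ± 0.059 in Epinephrine. The ranges of all 4 stimuli lay below that of Control. Vesicle groups were at 2.09 to 2.35, each overlapping EV-Control at 2.31 ± 0.246. CDH5 to PECAM1 was 1.27 ± 0.0489 in Control, 3.46 ± 0.0623 in TNF, 1.45 ± 0.0373 in IL1b, 1.37 ± 0.0213 in C5a and 1.09 ± 0.0193 in Epinephrine, with the first 3 stimuli above the range of Control and Epinephrine below it. EV-Control was at 1.63 ± 0.0501, and the other vesicle groups, at 1.21 to 1.51, were below its range. CDH5 to CDH2 was 1.32 ± 0.0314 in Control, 1.49 ± 0.0734 in TNF, 1.01 ± 0.0187 in IL1b, 1.09 ± 0.0173 in C5a and 0.993 ± 0.00325 in Epinephrine. In the vesicle groups CDH5 to CDH2 was 0.838 to 0.953, on average, against 0.993 to 1.49 in the direct groups.

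Other genes of the junction were read from fixed lists, whose counts stand beside shares of all genes tested. Among catenins and actin linkers 16 of 19 were tested, and TNF raised 7 and lowered 5, or 4 and 11 under total counts, where it raised 27.5% and lowered 25.3% of all genes with TMM. LIMA1, which links the cadherin complex to actin, rose from 196 ± 10.6 to 436 ± 12.7 CPM (SD, n = 3, log2 1.15) and ACTN1, an actin cross-linker, from 554 ± 12.2 to 995 ± 26.5 CPM (0.84). ARVCF, a relative of p120-catenin, fell from 77.8 ± 3.98 to 32.3 ± 1.62 CPM (-1.27). In edgeR's test the 3 had adjusted p-values between 1.12e-21 and 2.42e-17. In the same list C5a raised 7 and lowered 1 (11.8% and 10.8% of all genes). Epinephrine raised 3 and lowered 8 (13.5% and 11.8%), and IL1b raised 2 and lowered 4 (24% and 22.6%). Relative to EV-Control, at 58.8 ± 4.86 CPM, ARVCF was higher in EV-TNF (0.35), EV-IL1b (0.33) and EV-Epinephrine (0.19). These groups averaged 75.2, 73.8 and 67 CPM, none of them above the Control mean of 77.8 CPM.

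Of the other endothelial contact molecules 14 of 17 were tested in the direct groups. C5a lowered 11 of them (10.8% of all genes), and Epinephrine lowered 6 (11.8%) and raised 1 (13.5%). IL1b lowered 9 (22.6%) and raised 2 (24%), with a median of -0.38 against -0.01 for all genes. TNF lowered 6 (25.3%) and raised 5 (27.5%), or lowered 9 and raised 1 under total counts. ESAM, an adhesion molecule of endothelial tight junctions, fell from 24, 24.4 and 24.7 CPM in Control to 11.3, 10.3 and 12.4 in TNF, and passed for all 4 direct stimuli, at -1.11, -0.90, -0.61 and -0.85 for TNF, IL1b, C5a and Epinephrine. In EV-Control it held 13.1, 12.3 and 10.7 CPM, and it rose in EV-TNF (0.65), EV-IL1b (0.62) and EV-Epinephrine (0.57), with adjusted p of 7.64e-06, 1.92e-05 and 5.49e-05 in edgeR's test. CD47, a partner of SIRP-alpha on leukocytes, rose with TNF from 116 ± 3.46 to 394 ± 22.2 CPM (1.77) and with IL1b to 192 ± 9.14 CPM (0.74). In EV-Control against Control 9 of 15 tested genes of this list fell, where 9.8% of all genes did, with a median of -0.26 against -0.01 for all genes.

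Among cadherin and nectin receptors 9 of 12 were tested in the direct groups, and TNF raised 1 (27.5% of all genes) and lowered 3 (25.3%). NECTIN2 rose with TNF by 0.54, and NECTIN1 and the cadherin CDH24 fell by 0.76 and 0.73. Junction regulators had 33 of 34 genes tested in the direct groups, and TNF raised 18 (27.5% of all genes) and lowered 8 (25.3%), or 7 and 18 under total counts. TEK, which encodes TIE2, rose with TNF (0.78) and fell with C5a (-0.54), the directions PTPRB had in those groups. The PTPRB calls there were each lost in 4 of 14 settings. In IL1b, where PTPRB did not pass the test, the libraries of both genes lay on different sides of Control. TEK libraries held 26.5, 30.4 and 28.9 CPM there, below Control at 34, 37.4 and 38.5 CPM, while PTPRB libraries lay above Control. With Epinephrine the libraries of both genes lay below Control, with TEK at 30.1, 28.5 and 30.2 CPM.

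Of the endoglin receptor complex and its targets 23 of 25 genes were tested, and TNF raised 12 (27.5% of all genes) and lowered 7 (25.3%), or 10 and 10 under total counts. The inhibitory SMAD6 fell with TNF from 9.88 ± 0.441 to 2.77 ± 0.8 CPM (-1.86). ID1, a target of BMP receptors, rose with Epinephrine from 63.7 ± 8.31 to 211 ± 19.1 CPM (1.74). ID2 and SMAD7, a target and an inhibitor of these receptors, fell in EV-TNF (-1.40 and -1.73), EV-IL1b (-1.25 and -1.58) and EV-Epinephrine (-2.64 and -2.04), each relative to EV-Control. EV-Control libraries held 41.1, 53.6 and 51.6 CPM of ID2 and 19.8, 29.7 and 27.5 CPM of SMAD7, above Control libraries at 10.7, 10.7 and 8.54 CPM and at 9.62, 11.3 and 10.3 CPM. ID2 averaged 18.5 ± 0.271 CPM in EV-TNF and 20.6 ± 2.47 CPM in EV-IL1b, still above Control. In EV-Epinephrine the libraries held 7, 8.32 and 8.27 CPM of ID2, below every Control library. SMAD7 was below every Control library in each of these groups, at 6.91 to 8.34 CPM in EV-TNF, 8.2 to 9.34 in EV-IL1b and 5.77 to 7 in EV-Epinephrine.

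The genes most like CDH5, PECAM1 and ENG were found by Pearson's correlation of 10 group means of log2 CPM among 10547 genes, a description of groups that share libraries for their scaling. For CDH5 they were BCL6B (0.986), CRIM1 (0.985) and TMEM87B (0.975), all highest in TNF. For PECAM1 they were ARV1 (0.946), TXNDC15 (0.935) and NUDT16 (0.916), and for ENG MIER2 (0.954), UFL1 (0.946) and VAMP4 (0.937). These are the highest of 10547 correlations over 10 group means, so high values can arise from that choice alone. Group means ran from 6.99 to 31.4 CPM for BCL6B, but only from 28.6 to 34.3 CPM for NUDT16 and 27.6 to 31.5 CPM for MIER2.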

How the data were processed

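The authors deposited 1 table of raw read counts per gene for the 30 libraries of hCMEC/D3 cells, with no normalization. The submitters' processing notes name the build hg38 and the tools FastQC, STAR, R 4.4.1 and DESeq2, with no role. The counting program, the annotation release and the strand setting are not given in the sources used here. The batch entry of the labels is 1 for all libraries. Per the labels' protocols, libraries were made with the NEBNext Ultra RNA kit.

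Of 63147 lines, 4 had no gene ID (0.00079% to 0.0016% of counts) and were left out, as were 2 genes with a broken record, and 3 repeated IDs were kept once. Counts were tested in R 4.3.3 with edgeR 4.0.16 (filterByExpr, TMM, robust quasi-likelihood test, two-sided, Benjamini-Hochberg adjustment over all genes, threshold 0.05). The 15 direct libraries (15908 genes), the vesicle libraries (15918 genes) and all 30 libraries (16691 genes) were fitted separately, the last for the contrast of EV-Control with Control and for the differences of responses. An SE is the absolute log2 fold change over the root of its F statistic. Simulated data with known changes were used to test the edgeR step. Replicate pairs differed beyond sampling noise, with a chi-square per gene of 2.04 to 12.9. The highest values were 12.9 and 10.1 for Epinephrine replicate 2 against replicates 1 and 3, and 10.1 for EV-Control replicate 1 against replicate 3. All other pairs were at most 5.96. EV-Control is the reference of every vesicle comparison. Counting intervals and floors cover counting error only.

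The rule named all 9 members in every comparison. From each list and comparison, the genes that could be named were the 2 that rose most and the 2 that fell most, given an adjusted p under 0.05 and a mean of 5 CPM or more in whichever group was higher. Those printed are a selection made after the values were seen, and results for some genes of the lists are not reported here. The members and lists were chosen with earlier results of these data known. Alternatives were relative log expression factors, total counts, no filter, a mean of at least 50 counts, DESeq2 1.42.0, a replicate term, other sets of libraries and leaving out each library. Positions are those of GENCODE 29 and promoter windows those of RefSeq.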

Additional observations from a re-analysis of the deposited data

Results flagged for a closer look

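Each result here is a gene whose response to vesicles, relative to EV-Control, differed from its response to the direct stimulus, relative to Control, in edgeR's test of that difference (adjusted p under 0.05). Values are vesicle response minus direct response on the log2 scale, and the direct responses share 1 set of Control libraries and the vesicle responses 1 set of EV-Control libraries. For TNF the genes were JUP (1.64), PECAM1 (1.18), ENG (0.19), CDH2 (-0.63) and CDH5 (-0.68). For IL1b they were JUP (1.36), PECAM1 (0.94), CDH5 (0.31) and CDH2 (-0.17), and CDH2 did not pass under total counts (-0.08) or without the filter on low counts (-0.18). For C5a they were JUP (0.63), PECAM1 (0.44) and CDH5 (0.21), and the CDH5 call was lost without Control replicate 1, Control replicate 3, C5a replicate 2, EV-Control replicate 3 or EV-C5a replicate 3. For Epinephrine they were PTPRB (0.67), PECAM1 (0.46), CDH5 (0.45) and JUP (0.31), and the JUP call was lost without Control replicate 1 or Epinephrine replicate 1 and when the fit held the compared groups alone. EV-Control was lower than Control for CDH5 (-0.51), PECAM1 (-0.88), JUP (-0.33), PTPRB (-0.52) and ENG (-0.15). Of these calls, that of JUP was lost in a fit of both groups alone, and that of ENG without Control replicate 1 or EV-Control replicate 1. The part of these differences in starting level in the values above was not tested.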

How the results depend on the processing

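Of 1720 values of single genes under the alternatives, 1537 kept their direction and their side of the threshold, 53 no longer passed, 18 passed newly and 112 changed sign. Of those 112, only 3 passed the threshold in either setting, and all 3 arose under total counts: CTNND1 with TNF (-0.03, called at 0.25 with TMM), CTNNB1 in IL1b against TNF (0.12, adjusted p = 0.0105, edgeR) and the CTNNB1 TNF response difference (0.28, adjusted p = 6.44e-06, edgeR). Here total counts act by construction, since the TNF libraries have TMM factors of 0.842 to 0.861 and all others at least 0.974. The other sign changes under total counts were CTNND1 (0.16) and PTPRB (0.20) in the TNF response difference, PTPRB in IL1b against TNF (0.11), CDH2 with IL1b (-0.03) and EV-Epinephrine (0.01), CTNNB1 in EV-IL1b (0.01), JUP in EV-TNF (0.01), ENG with Epinephrine (-0.01), and CDH2 and CTNND1 in the C5a response difference (-0.01 each). Under the remaining settings that keep all libraries of the groups compared, values that changed sign were -0.01, 0.00 or 0.01, and their cause was not tested.

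Counts of the 8 genes moved by over 1.5 times as follows. IL1b against Control gave 5 under total counts and when the fit held the compared groups alone, against 3. EV-Epinephrine gave 1, against 2, under relative log expression factors, no filter, a fit of all 30 libraries, only the groups compared and DESeq2. Leaving out a library gave 1 to 3 for EV-Epinephrine, 1 to 4 for EV-IL1b (1 without EV-Control replicate 1), 1 to 2 for EV-TNF (1 without EV-TNF replicate 1) and 0 to 1 for EV-C5a (1 without EV-Control replicate 3). The causes were not tested. Values that changed sign when 1 library was left out passed in neither setting, and their ranges over the libraries left out are these, where a response difference is the vesicle minus the direct response. For CDH2 the ranges were -0.03 to 0.00 (C5a response difference), -0.03 to 0.06 (Epinephrine response difference) and -0.08 to 0.01 (Epinephrine vs Control). For CDH5 the ranges were -0.03 to 0.04 (EV-Epinephrine vs EV-Control), -0.06 to 0.00 (EV-IL1b vs EV-Control) and -0.06 to 0.01 (EV-TNF vs EV-Control). For CTNNB1 the ranges were -0.04 to 0.03 (EV-Control vs Control), -0.07 to 0.01 (EV-Epinephrine vs EV-Control), -0.03 to 0.04 (EV-IL1b vs EV-Control), -0.06 to 0.02 (EV-TNF vs EV-Control), -0.04 to 0.04 (TNF response difference) and -0.04 to 0.01 (TNF vs Control). For CTNND1 the ranges were -0.05 to 0.03 (C5a response difference), -0.02 to 0.06 (EV-Epinephrine vs EV-Control), -0.03 to 0.17 (EV-IL1b vs EV-Control), 0.00 to 0.19 (IL1b response difference) and -0.10 to 0.05 (IL1b vs Control). For ENG the ranges were -0.01 to 0.08 (C5a response difference), -0.05 to 0.01 (EV-C5a vs EV-Control), -0.01 to 0.03 (Epinephrine vs Control) and -0.05 to 0.02 (IL1b response difference). For JUP the ranges were -0.14 to 0.06 (EV-Epinephrine vs EV-Control) and -0.10 to 0.10 (EV-TNF vs EV-Control). For PECAM1 the ranges were -0.02 to 0.05 (EV-C5a vs EV-Control). For PTPRB the ranges were -0.03 to 0.21 (EV-Epinephrine vs EV-Control), -0.16 to 0.03 (IL1b vs TNF) and -0.18 to 0.01 (TNF response difference).

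Deviations of libraries with the same replicate number gave correlations of -0.0539 to 0.0608 over 135 pairs, with 0 over 0.1. Since counting noise can hide a shared effect in such correlations, they do not show whether the numbers pair samples. A replicate block gave 1 called gene for EV-Epinephrine against 2, with ENG at 0.10, and the same count as without it in the other comparisons. It changed the sign of 2 values, both 0.00 (CDH2 and CTNND1 in the C5a response difference). Depth limits CTNND1 (239 to 375 counts) and PTPRB (142 to 439 counts).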
